A study of Mus musculus with 20 samples.

Results

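The mitochondrial ribosomal protein genes examined here were the 78 autosomal protein-coding genes of the mouse RefSeq annotation whose symbol starts with Mrpl or Mrps followed by a number, out of 20665 autosomal protein-coding genes. By name, 49 belong to the large subunit and 29 to the small subunit. The mark measured was acetylation of histone H3 at lysine 27 (H3K27ac), by chromatin immunoprecipitation and sequencing of mouse hepatocytes isolated from the liver by a 2-step perfusion. There were 5 libraries from young C57BL/6N mice aged 5 months and 5 from old C57BL/6J mice aged 23 months, so the effects of age and of substrain cannot be told apart. Human chromatin was added to every preparation as a spike-in. Whether replicates came from separate mice is not in the labels, and the p-values below therefore reflect library-to-library spread that may be technical. In each library, the regions called enriched within 1 kb of either end of a gene were added up, as scaled tags (sequenced fragments scaled to 10000000 per library), as called length, and as the ratio of these, tags per kb.

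Mitochondria keep their own ribosome, which translates the few proteins encoded by mitochondrial DNA, all of them parts of the oxidative phosphorylation machinery. Every protein of that ribosome is encoded in the nucleus, made in the cytosol and imported. H3K27ac marks active promoters and enhancers, and nuclear genes for mitochondrial proteins often carry promoter sites for NRF1, for ETS factors such as GABP, and for YY1. The large subunit catalyses peptide bond formation and the small subunit reads the messenger RNA. A few symbols do not follow the place of the protein: the products of Mrps30 and Mrps18a sit in the large subunit, Mrpl58 encodes a peptidyl-tRNA hydrolase that is also built into the ribosome, and the product of Mrps36 belongs to the 2-oxoglutarate dehydrogenase complex.

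Promoter sequence was available for 69 of the 78 genes, from RefSeq on the GRCm38.p6 assembly, as 300 bases from 250 before to 50 after a transcription start. A total of 6 windows are printed 5′ to 3′ on the gene's strand because the results below turn on these genes. They are Mrpl10 and Mrpl39, with the 2 lowest old minus young differences, Mrps12 and Mrps11, whose regions serve 2 genes each, Mrps10, with the smallest p in tags per kb, and Mrps30, with no region in one young library. Capitals mark the searched letters GCGCATG (the core of an NRF1 site), CCGGAAG (ETS) and AAGATGG (YY1), on either strand. Read from the other strand, the NRF1 letters are CATGCGC and the YY1 letters are CCATCTT.
Mrpl10: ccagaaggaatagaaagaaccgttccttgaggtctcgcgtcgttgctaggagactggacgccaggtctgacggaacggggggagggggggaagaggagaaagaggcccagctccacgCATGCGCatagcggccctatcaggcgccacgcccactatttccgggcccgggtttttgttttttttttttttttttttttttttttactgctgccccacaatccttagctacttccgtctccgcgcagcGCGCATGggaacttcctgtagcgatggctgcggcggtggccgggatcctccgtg
Mrpl39: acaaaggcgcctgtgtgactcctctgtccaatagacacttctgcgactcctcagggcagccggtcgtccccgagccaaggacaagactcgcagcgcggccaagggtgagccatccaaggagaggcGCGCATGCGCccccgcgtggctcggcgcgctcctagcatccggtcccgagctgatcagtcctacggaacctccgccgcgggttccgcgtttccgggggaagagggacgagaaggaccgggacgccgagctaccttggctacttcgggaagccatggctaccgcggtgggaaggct
Mrps12: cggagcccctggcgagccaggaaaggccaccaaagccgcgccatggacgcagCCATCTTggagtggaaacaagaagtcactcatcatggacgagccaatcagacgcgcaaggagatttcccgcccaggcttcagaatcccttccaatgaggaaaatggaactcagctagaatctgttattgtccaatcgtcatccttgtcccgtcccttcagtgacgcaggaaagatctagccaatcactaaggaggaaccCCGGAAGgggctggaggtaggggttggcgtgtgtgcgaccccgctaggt
Mrps11: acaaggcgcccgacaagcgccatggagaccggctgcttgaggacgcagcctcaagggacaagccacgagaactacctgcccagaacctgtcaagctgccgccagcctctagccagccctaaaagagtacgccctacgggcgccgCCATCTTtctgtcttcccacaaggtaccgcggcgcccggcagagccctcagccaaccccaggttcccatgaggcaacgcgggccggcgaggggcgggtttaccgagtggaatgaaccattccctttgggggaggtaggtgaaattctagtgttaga
Mrps10: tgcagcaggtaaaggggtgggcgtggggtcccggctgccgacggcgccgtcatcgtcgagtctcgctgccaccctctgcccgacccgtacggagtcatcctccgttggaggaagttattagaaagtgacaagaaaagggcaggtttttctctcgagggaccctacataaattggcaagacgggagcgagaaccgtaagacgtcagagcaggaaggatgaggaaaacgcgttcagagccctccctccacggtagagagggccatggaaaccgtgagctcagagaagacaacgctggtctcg
Mrps30: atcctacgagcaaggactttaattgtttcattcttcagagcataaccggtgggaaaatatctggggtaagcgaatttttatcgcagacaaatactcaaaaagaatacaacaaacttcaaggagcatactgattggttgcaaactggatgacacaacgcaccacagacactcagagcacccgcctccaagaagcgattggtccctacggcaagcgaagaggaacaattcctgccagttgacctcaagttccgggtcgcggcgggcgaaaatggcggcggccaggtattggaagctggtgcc
In these windows the NRF1 letters appear in Mrpl10 and Mrpl39, both ETS and YY1 letters in Mrps12, YY1 letters alone in Mrps11, and none of the 3 in Mrps10 and Mrps30. The windows lie at chr11:97041332-97041631 (Mrpl10), chr16:84735195-84735494 (Mrpl39), chr7:28741772-28742071 (Mrps12), chr7:78782881-78783180 (Mrps11), chr17:47368947-47369246 (Mrps10) and chr13:118387203-118387502 (Mrps30). Mrps12 and Mrpl39 are on the minus strand, as is Mrps30, and the others are on the plus strand. The Mrps10 window lies inside the annotated gene, which begins at 47368887. The bases before that gene end were therefore not searched for motifs.

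Over the 69 promoters, the ETS letters occurred in 26 genes (37.7%), against 13.3% of all 16457 autosomal protein-coding promoters in the table and 22.3% of the 5921 whose gene had a region in all 10 libraries. The YY1 letters occurred in 13 member genes (18.8%), against 7.26% and 8.88%, and the NRF1 core in 8 (11.6%), against 5.46% and 8.71%. Among these 3 motifs, 31 genes held none, 29 held 1, 9 held 2 and 0 held all 3. The 9 with 2 were Mrpl17, Mrpl22, Mrpl32, Mrpl33, Mrpl52, Mrps12, Mrps18a, Mrps18b and Mrps27. GGGCGG, the box bound by SP1, was in 34 genes (49.3%, against 50.3% of all and 67.7% of the called promoters), CCAAT in 27 (39.1%, against 42.3% and 42.8%) and TATAAA in 5 (7.25%, against 15.01% and 8.97%). The CCGGAAG share in cytosolic ribosomal protein promoters was 37.9% of 66, and in oxidative phosphorylation promoters 25.4% of 67. The median GC content of the member promoters was 58.0%, against 56.7% of all and 60.8% of the called promoters. Their median ratio of observed to expected CpG was 0.82, against 0.58 and 0.78. These are matches of letters, with no test, and say nothing of whether a factor is bound.

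The libraries held 6295930 to 15544145 tags and 21213 to 30195 regions. The immunoprecipitation efficiency printed in the file headers, the share of tags inside regions, averaged 40.2% ± 6.62 in the young group and 31.9% ± 4.81 in the old group (SD, n = 5 each). All 8 hepatocyte markers were called, 7 of them in all 10 libraries, with summed scaled tags of 5094 to 6564 in young and 2022 to 4617 in old libraries. All 5 Kupffer cell markers tested were at 0 in every library, as were the endothelial Kdr and Pecam1 and the T and B cell markers Cd3e, Cd8a and Ms4a1. The 4 of 6 endothelial markers that were called summed to 28.9 to 69.0 in young and 0 to 97.7 in old libraries. In the other lists the called markers were Reln (1 of 6 stellate; 0 to 144 in young, 44.5 to 103 in old), Sox9 and Spp1 (2 of 5 cholangiocyte; 253 to 580 and 222 to 520) and Cd79a (1 of 5 lymphocyte; 0 to 204 and 52.4 to 140). The part of these cells in the results below was not tested. Young replicates 1 and 3 stood apart from the others: a region lay at the ends of 41.4% and 41.3% of the 20665 genes there, against 44.5% to 51.4% in the other 8 libraries. Values without them, a choice made after the data were seen, are given beside the results they moved most.

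An acetylated end was called for 76 of the 78 mitochondrial ribosomal protein genes in at least 1 library. A region was called in all 10 libraries at 53 of the 78 genes, in 1 to 9 libraries at 23, and in none at 2. Of all 20665 genes, 11424 were called in at least 1 library and 7239 in all 10. The genes called per library numbered 63, 76, 67, 76 and 75 in young replicates 1 to 5, and 72, 76, 73, 75 and 68 in old replicates 1 to 5. The old group had the larger number of calls at 13 genes and the young group at 6, while 59 had equal numbers. This balance rests on young 1 and 3: the mean number of members called was 71.4 in young and 72.8 in old libraries, and 75.7 in young without those 2.

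**Figure D1:**
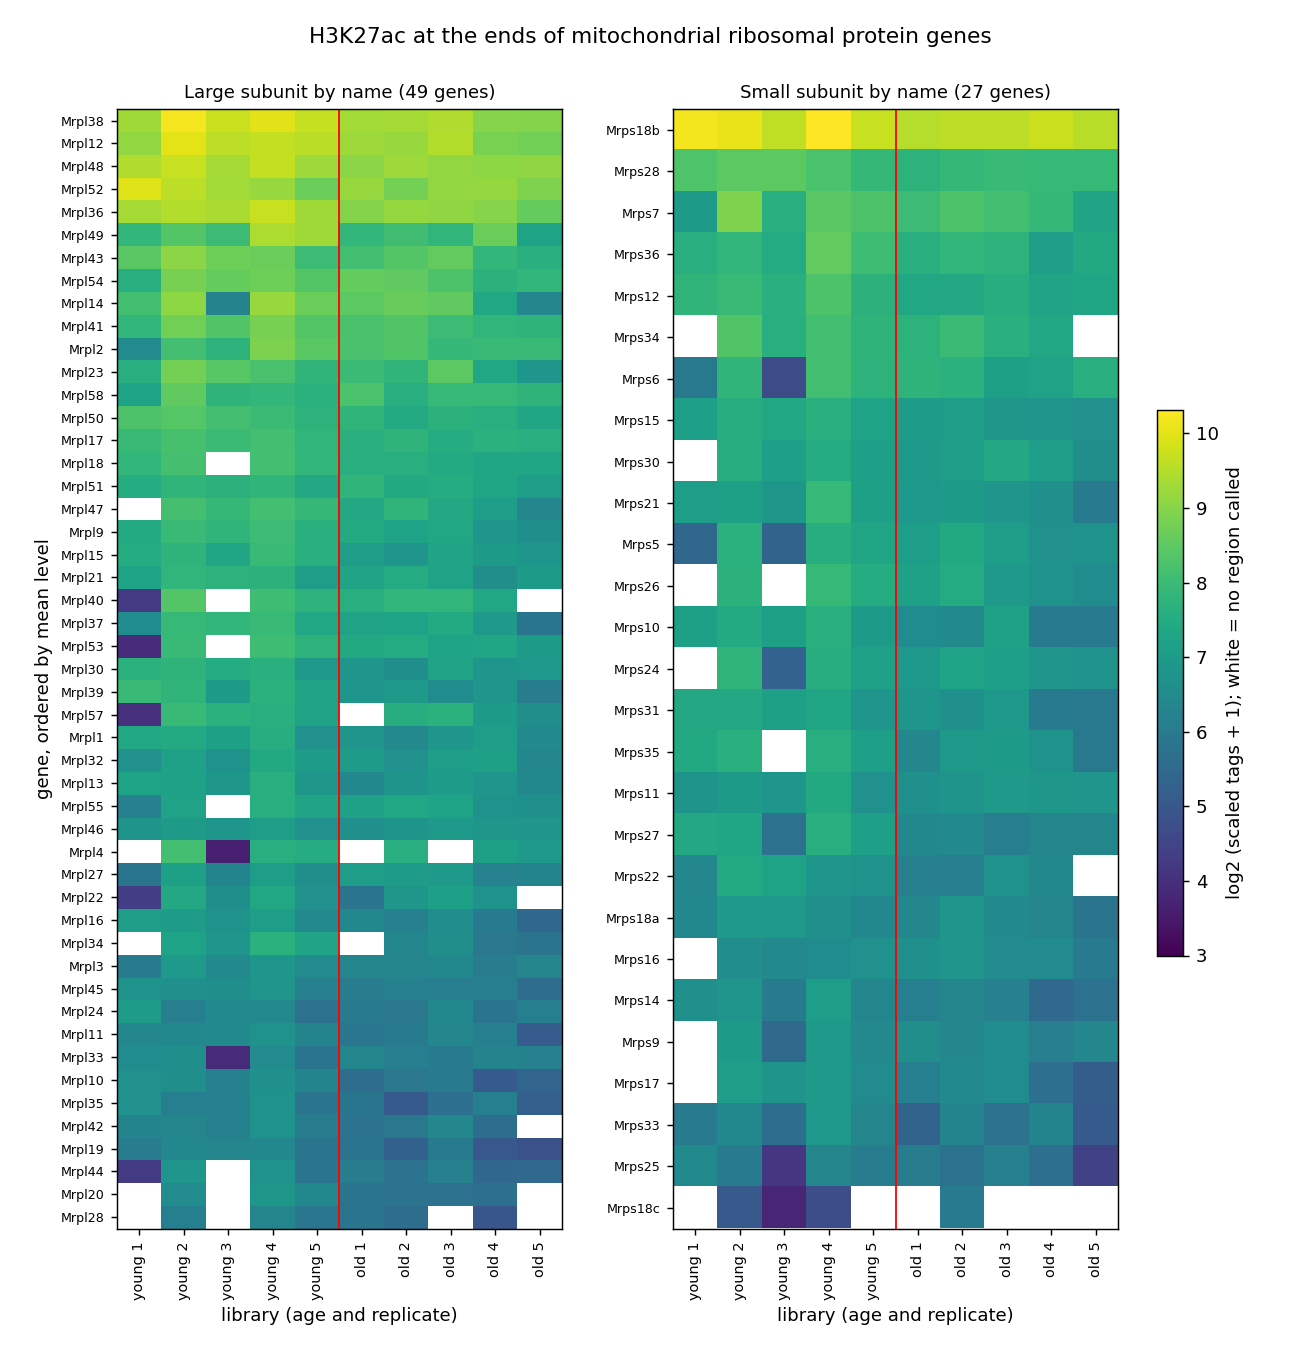
Scaled H3K27ac tags at the ends of 76 mitochondrial ribosomal protein genes (rows, in 2 panels by subunit name) in 10 libraries (columns; the red line parts 5 young from 5 old). Colour is log2 of scaled tags plus 1 and white cells have no called region. Mrps18b, Mrpl38 and Mrpl12 have the highest means, and white cells gather in young 1, young 3 and old 5.

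The missing calls were concentrated in a few libraries. Of the 59 gene and library pairs with no call, 20 belong to Mrps2 and Mrps23, and 26 of all 59 fell in young replicates 1 and 3. Over the 75 genes called in at least 5 libraries, young replicate 1 had no call at 12 and less than 1/3 of the other libraries' median at 7 more. Young replicate 3 had no call at 9 and a low value at 7, and old replicate 5 had no call at 7 and a low value at 2. Old replicate 1 lacked 3 calls and old replicate 3 lacked 2, while young replicates 2, 4 and 5 and old replicates 2 and 4 lacked none. A total of 12 genes were missing in young 1, young 3 or both and called in the other 8 libraries. In young 1 and young 3, 82.9% and 88.2% of the 76 member genes ever called had a region, against 95.1% and 93.9% of cytosolic ribosomal protein genes, 86.8% and 93.4% of oxidative phosphorylation genes, and 74.8% and 74.7% of all genes ever called.

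**Figure D2:**
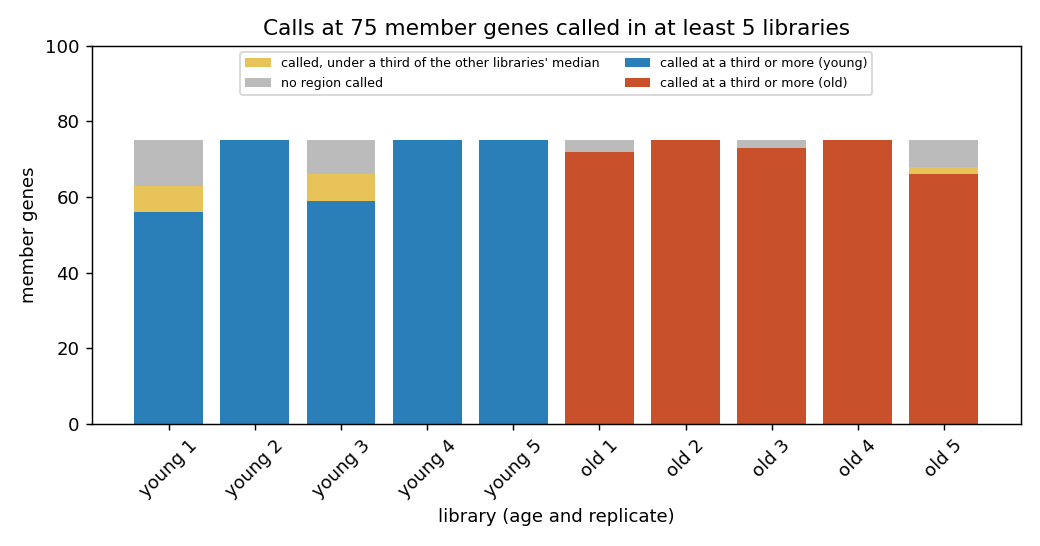
Number of genes (y axis) by call in each library (x axis), for the 75 mitochondrial ribosomal protein genes called in at least 5 libraries. Blue (young) and red (old) are genes at 1/3 or more of the median of the other libraries, yellow are called genes below that, and grey have no call. Young 1, young 3 and old 5 hold 19, 16 and 9 genes in the yellow and grey parts.

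The uncalled genes were not all weak ones. Among the members with promoter sequence that were compared, 10 were not called in young 1 and 56 were. Their median levels in the other libraries were 95.7 and 135 scaled tags. In young 3 the medians were 147 for 8 uncalled and 127 for 58 called genes. In old 5 they were 88.9 for 6 uncalled and 141 for 60 called genes. Mrpl18 had 0 scaled tags in young 3 and 228, 285, 282 and 227 in the other young libraries, with 157 to 194 in the old. Mrps30 had 0 in young 1 and 187, 140, 182 and 138 in the others, with 97.7 to 169 in the old. Mrpl47, which shares its region with Ndufb5 (a complex I subunit), had 0 in young 1 and 232 to 285 in the other young libraries. In each of these genes a single library stood at 0 and the other 9 had a region.

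Mrps26 was at 0 in both young 1 and young 3 and at 184 to 238 in the other young libraries. Mrpl53 was at 14.2 and 0 there, against 210 to 266, and Mrpl40 at 18.1 and 0, against 213 to 329. Mrpl40 was also at 0 in old 5, with 163 to 228 in the other old libraries. Mrps34 was at 0 in young 1 and old 5 and between 168 and 324 in the other 8. Mrpl4 was at 0 in young 1, old 1 and old 3, at 11.6 in young 3, and between 124 and 282 in the other 6. Outside the libraries named, these 5 genes held 93.7 to 329 scaled tags.

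Among the other genes missing once, Mrps9, Mrps16, Mrps17 and Mrps24 were at 0 in young 1, Mrpl44, Mrpl55 and Mrps35 in young 3, Mrpl22, Mrpl42 and Mrps22 in old 5, and Mrpl57 in old 1. Mrpl34 was at 0 in young 1 and old 1, Mrpl20 in young 1, young 3 and old 5, and Mrpl28 in those 3 and in old 3. Mrps18c, one of 3 paralogues of the bacterial S18 protein, was called in only 4 libraries, with 32.3, 12.9 and 25.6 in young 2, 3 and 4 and 63.0 in old 2. For the 39 uncalled pairs of the 23 genes the nearest called region lay a median of 11706 bp from the gene end, and 10 lay within 5000 bp. Median promoter GC content was 57% for genes not called in young 1 against 58.0% for those called, 60.3% against 57.8% in young 3, and 51.2% against 58.2% in old 5. Input is the chromatin sequenced without immunoprecipitation. Its scaled tags per kb of the members' called regions were 13.1 in young 1 and 15.6 in young 3. In the other libraries they ran from 5.90 (young 5) to 10.9 (old 5). The parts of base composition and of input in the missing calls were not tested.

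Mrps2, a small subunit protein, had no region within 1 kb in any library, but one lay 1530 to 2023 bp away in all 10, with 57.2 to 212 scaled tags. The nearest region to Mrps23 lay 5734 to 6375 bp away in all 10. For both genes this is distance from the annotated gene end and does not show that the promoter in use was unmarked.

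The members carried little of the mark compared with other called genes. Over the 53 genes called in all 10 libraries the median level was 152 scaled tags, with quartiles of 104.9 and 269, against 274 over all 7239 genes called in all 10. The median member stood at the 19.7th percentile of the 6630 tested units, a unit being the genes that have the same regions in all libraries. Only 11 of the 53 lay above the median unit. The median called length was 1851 bp, against 2575 bp for all genes. Cytosolic ribosomal protein genes had a median level of 209 and oxidative phosphorylation genes of 229. No test of these level differences between lists was made.

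The highest genes shared their regions with neighbours. Mrps18b, another S18 paralogue, led with a mean of 900 scaled tags over 7187 bp in regions shared with Atat1 and Ppp1r10. Its libraries gave 1166, 1076, 784, 1279 and 842 in young and 730, 778, 768, 843 and 737 in old. Young 3, young 5 and the old libraries overlapped. Mrpl38 followed with 748, in a region shared with Trim65, and Mrpl12 with 672, shared with Hgs and Slc25a10. Mrpl12 encodes the stalk protein that recruits translation factors. Mrpl48 (640, with Rab6a) and Mrpl52 (605, with Mmp14) completed the highest 5, and Mrpl36 (600, with the complex I gene Ndufs6) came next, chosen after its value was seen. Mrps18b, Mrpl12 (7127 bp) and Mrpl52 (6120 bp) were also the 3 longest.

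The lowest were Mrps25 (58.1), Mrpl19 (58.4), Mrpl35 (65.4), Mrps33 (67.3) and Mrpl10 (70.0), and the shortest were Mrps14 (1065 bp), Mrps33 (1109 bp) and Mrpl19 (1127 bp). Neighbours in these 2 orders differed by less than the SD between libraries. Mrpl19, a large subunit protein, gave 66.8, 84.1, 79.7, 85.3 and 55.0 scaled tags in young and 55.2, 37.6, 62.9, 30.7 and 27 in old, and the ages overlapped. When the 6630 units were split into 10 groups of equal size by level, the lowest group ran from 24.4 to 112 and held 15 of the 53 members.

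Members that shared a region had the higher levels. In at least 5 libraries, 39 of the 76 called genes shared a region with another protein-coding gene. Of these, 28 were tested, with a median of 217 scaled tags and 2508 bp, against 121 tags and 1642 bp for the 25 tested genes that shared none. All 11 members above the median unit were in the shared group. Sharing was read from the called regions themselves, so it is not independent of their length and tags. The other units were not split in this way. By name, the 36 large subunit genes tested had a median of 164 tags and the 17 small subunit genes 128. The partners included other genes for mitochondrial proteins: Sars2, the mitochondrial seryl-tRNA synthetase (with Mrps12), Twnk, the mitochondrial DNA helicase (with Mrpl43), Ndufs6 and Ndufb5. Others were Psma2, a proteasome subunit (with Mrpl32), and Fau, which encodes the cytosolic ribosomal protein S30 fused to a ubiquitin-like protein (with Mrpl49).

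One pair consisted of 2 members. Mrpl46 and Mrps11 face away from each other on chromosome 7 with 41 bases between them, and shared 1 region in 9 libraries. It gave 110, 127, 114 and 104 scaled tags in young 1, 2, 3 and 5 and 102, 110, 120, 116 and 111 in old 1 to 5. In young 4 Mrpl46 had 137 and Mrps11, with a further region, 174. They are nearly the same measurement and are not 2 replicates.

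Member regions lay over the transcription start and reached further into the gene than upstream. Over the 69 genes with a known strand, the strongest region at the start ran a median of 423 to 764 bp upstream in young and 443 to 629 bp in old libraries. Into the gene it ran 960 to 1131 bp and 822 to 986 bp. It reached further into the gene than upstream in 48 of the 67 genes with such a region. Other genes with a region at the start leaned the same way. Their library medians were 757 to 903 bp upstream and 1251 to 1386 bp into the gene in young libraries. In old libraries they were 638 to 811 bp and 1078 to 1226.5 bp, so the lean was not particular to the members. Only Mrpl58 was called at its other end alone, in 2 libraries.

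At 47 stranded members called in all 10 libraries, the start base was covered in a median of 89.4% of genes per library, against 91.2% of 5874 other genes weighted to the members' levels. At 2000 bp into the gene the share was 9.57%, against 15.2% at matched level and 26.1% of the others unweighted. At 2000 bp upstream it was 7.45%, against 6.71% and 11.3%. One library's share moves by about 2 points for each gene, and the library ranges at 2000 bp into the gene were 4.26% to 17.0% for members and 9.91% to 19.4% for matched genes, which overlap. This is a description, with no test.

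**Figure D3:**
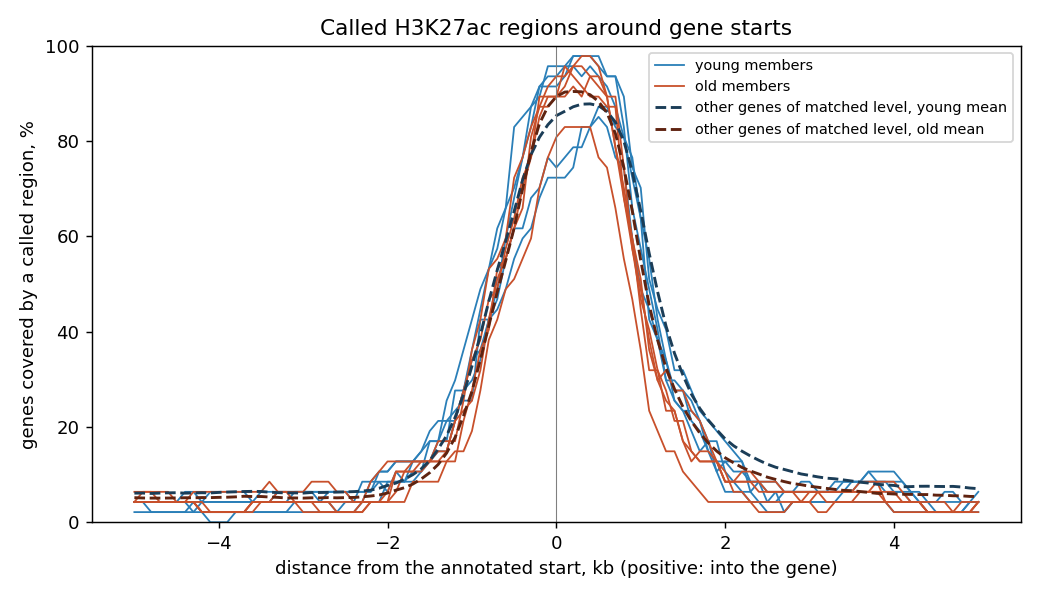
Share of genes covered by a called region (y axis, %) against distance from the annotated start (x axis, kb, positive into the gene). Thin lines are the 47 members in each library, blue young and red old, and dashed lines the mean over libraries of 5874 other genes weighted to the members' levels. Young 1, young 3 and old 5 run below the other libraries at the start, from 72.3% to 80.9%.

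The members' summed mark was lower in old libraries, about as much as at all gene ends. The sums were 12420, 19969, 13096, 19979 and 14992 scaled tags in young replicates 1 to 5 and 12771, 13741, 13685, 11621 and 9407 in old replicates 1 to 5. Young 1 and 3 lay within the old range and the other 3 young libraries above it. The means were 16091 ± 3668 and 12245 ± 1805 (SD, n = 5 each), an old to young ratio of 0.761, against 0.772 for all gene ends. Called length came to 166 ± 36.1 kb and 151 ± 18.5 kb (SD, n = 5 each), a ratio of 0.908 against 0.894. Tags per kb were 97.9 ± 14.2 and 81.3 ± 5.97 (SD, n = 5 each), a ratio of 0.830 against 0.855. Without young 1 and 3 the tag ratios were 0.669 for members and 0.701 for all gene ends, and the length ratios 0.786 and 0.791.

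As a share of all gene-end tags, the members held 0.640% ± 0.036 (young) and 0.634% ± 0.014 (old; SD, n = 5 each), a difference smaller than either SD. Without young 1 and 3 the young mean was 0.666% and the difference, old minus young, -0.032 percentage points in place of -0.006. The 3 young shares, 0.657% to 0.677%, then lay above every old one, 0.618% to 0.650%. Over the input, the sequenced chromatin without immunoprecipitation, the members' enrichment was 10.6 ± 3.36-fold for the young and 8.22 ± 0.704-fold for the old group (SD, n = 5 each), and the young range of 6.63 to 14.3 held the whole old range. That overlap came from young 1 and 3, at 7.44 and 6.63. The other 3 young libraries lay above every old one, at 7.32 to 8.99, and the ratio was 0.777 with young 1 and 3 and 0.635 without them. The efficiency in the headers also differed between the ages, and its part in these sums was not tested.

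Gene by gene, no mitochondrial ribosomal protein gene passed the test for an age difference. The comparison asked whether a gene's level differed between old and young relative to the median unit of the same library. It used limma on log2(scaled tags + 1) over 6630 units and a Benjamini-Hochberg adjusted p under 0.05. Unless stated otherwise, log2 differences below are relative to that median unit. The tags, lengths and means printed beside them are not, so their ratios differ from the log2 values. Of the 53 members tested, 0 passed in scaled tags (0.0754% of all units passed), 0 in called length (0.0151%) and 0 in tags per kb (0%). The units that did pass included Btaf1 and Kif11, higher in old, and Pptc7 and Alas1, lower in old, in scaled tags, and Mettl23, lower in old, in length. At an unadjusted p under 0.05 there were 6 members in tags (13.2% of units), 7 in length (7.72%) and 4 in tags per kb (8.6%). DESeq2 and edgeR on tag counts also called 0 members. Without young 1 and 3, members past the adjusted threshold numbered 0 of 65 in tags (0.514% of 7776 units), 1 in length (0.27%) and 0 in tags per kb (0.09%). At an unadjusted p under 0.05 they numbered 6 (14.1%), 4 (9.44%) and 6 (10.6%), and those whose ages did not overlap 6 (10.6%), 3 (8.29%) and 5 (7.47%).

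The precision allowed a bound, relative to the median unit, on most of the 53 members tested. It does not bound the difference without that scaling, where the median unit itself lay at -0.36. The 95% interval of that relative difference, old minus young, lay within a 2-fold change in either direction for 47 of 53 members in scaled tags. In length it did so for 47 and in tags per kb for 53. The exceptions in tags were Mrps6, Mrpl14, Mrpl2, Mrps5, Mrpl33 and Mrps25. The median standard error was 0.18 for members and 0.15 for all units on the log2 scale of tags.

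Relative to the median unit, more members were lower than higher in old libraries, and the median difference was small. In scaled tags 33 members were lower in old and 20 higher, with a median log2 difference of -0.10, where 49% of all units were below 0 and their median was 0.01. In length 30 were lower and 23 higher (median -0.04; 46.1% of units below 0), and in tags per kb 27 and 26 (median -0.00; 46.4%). These medians moved with single libraries. In tags the median was -0.05 without young 1, -0.06 without old 1, and -0.05 without young 1 and 3 (40 lower, 25 higher). In length more members were higher than lower without young 4 (27 and 26), old 4 (28 and 25) or old 5 (31 and 25). In tags per kb more were higher without young 1 (31 and 28), young 4 (29 and 24) or old 1 (31 and 23), and 43 were lower and 22 higher without young 1 and 3, with a median of -0.07. Set against other units in the same of the 10 level groups, the median difference in tags was -0.08, with 36 members below 0 and 17 above. In the lowest group the other units had a median of 0.11 and the 15 members of -0.18. The cytosolic ribosomal protein genes gave a matched median of -0.10 (49 of 72 below 0) and the oxidative phosphorylation genes of -0.03 (33 of 60 below 0). These counts carry no test, and members that share a region or a library are not independent.

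**Figure D4:**
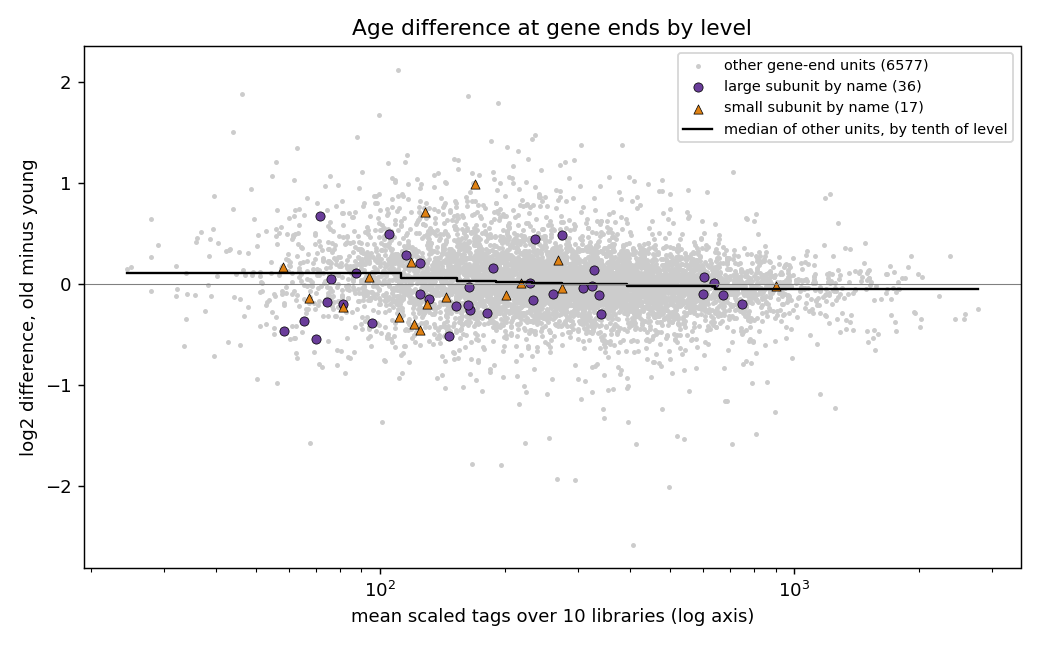
Log2 difference in scaled tags, old minus young relative to the median unit (y axis), against mean scaled tags (x axis, log axis) for 6577 other units (grey) and 53 members (purple circles large subunit, orange triangles small subunit by name). The black line is the median of the other units in each of 10 level groups. Members lie between -0.54 and 0.99, inside the grey cloud, and mostly below the line where the level is low.

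Most members that share no region lay below units of their level. The 25 such genes had a matched median of -0.24, with 21 below 0, and the 28 sharing genes of -0.03, with 15 below 0. Without young 1 and 3, which gave 65 tested members, the matched medians were -0.10 (23 of 32 below 0) and -0.02 (18 of 33), and -0.08 for all. By name the medians were -0.09 for large and -0.05 for small subunit genes, and -0.05 and -0.09 without those libraries, so that the order of the subunits turned. The units compared with were not split by sharing, so no like share can be given for them. The difference between the sharing and the other genes was not tested.

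By promoter motif, the median log2 difference was -0.02 in the 7 tested genes with the NRF1 core and -0.10 in the 40 without. For the ETS letters it was 0.01 in 16 and -0.12 in 31, and for YY1 -0.10 in 11 and -0.06 in 36. For GGGCGG it was -0.00 in 22 and -0.16 in 25. Genes with GGGCGG had a median of 194 scaled tags and those without 121. These values were not tested.

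Mrpl10 had the smallest p in scaled tags. It encodes the protein that anchors the stalk to the large subunit. It gave 104, 99.1, 72.9, 102 and 78.2 scaled tags in young and 47.8, 59.4, 64.1, 32.9 and 40.5 in old libraries, so that every old library lay below every young one. It was the only member without overlap in tags after each library was scaled to its median unit, where 3.59% of all units had none. The log2 difference was -0.54 (SE 0.20, limma adjusted p = 0.283), and -0.44 (adjusted p = 0.367) without young 1 and 3. Relative to the median unit the log2 difference was -0.59 in length (limma adjusted p = 0.566) and 0.05 in tags per kb, and neither passed. The unscaled mean lengths were 1477 bp in young and 929 bp in old libraries. In old 5 the region was 500 bp long, the peak size set for the calls, with 81.0 tags per kb. Its region also serves Lrrc46, and its promoter, printed above, held the NRF1 core on both strands.

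Mrps10, a protein of the small subunit head, had the next p and differed in density rather than length. Its scaled tags were 142, 179, 142, 201 and 126 in young and 93.7, 87.3, 145, 65.7 and 65.1 in old, where old 3 alone reached the young values. The log2 difference was -0.45 (SE 0.18, limma adjusted p = 0.300) in tags, -0.02 in length and -0.42 (SE 0.13, adjusted p = 0.442) in tags per kb. In tags per kb it gave 79.4, 104.6, 106, 94.8 and 65.8 in young against 70.7, 48.6, 65.5, 43.3 and 55.9 in old, and old 1 overlapped only with young 5.

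Mrpl39 gave 249, 220, 126, 203 and 155 scaled tags in young and 113, 122, 93.1, 115 and 66.7 in old libraries. The log2 difference was -0.52 (SE 0.21, limma adjusted p = 0.312). Mrpl9 gave 178, 248, 219, 257 and 200 in young and 177, 152, 164, 115 and 99.3 in old, a log2 difference of -0.29 (SE 0.12, adjusted p = 0.320). In both genes every old library lay below every young one in these values, and the ages overlapped once each library was scaled to its median unit. Before that scaling, 785 of 6630 units and 9 of 53 members had ages that did not overlap, in either direction.

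Mrps31 (-0.39), Mrpl16 (-0.38) and Mrpl19 (-0.47) were the other members with a negative difference among the 10 smallest p, besides Mrpl38 below, and their limma adjusted p lay between 0.400 and 0.413. Without young 1 and 3 the differences of Mrps31 and Mrpl16 were -0.21 and -0.23. The remaining pair had positive differences. Mrpl58 gave 150, 368, 218, 228 and 205 scaled tags in young and 303, 198, 238, 241 and 214 in old libraries. The log2 difference was 0.45 (SE 0.17, limma adjusted p = 0.300), and 0.37 to 0.56 with 1 library left out. In young 1 and old 2 its regions lay at the other gene end alone, so the 10 values do not all measure the same place. Mrpl27, whose region also serves Eme1, gave 56.1, 142, 77.6, 134 and 98.1 in young and 136, 131, 121, 75.3 and 77.8 in old, a difference of 0.50 (SE 0.20, adjusted p = 0.308), and 0.27 without young 1 and 3. In both the ages overlapped throughout and the means of scaled tags differed by less than the SD.

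**Figure D5:**
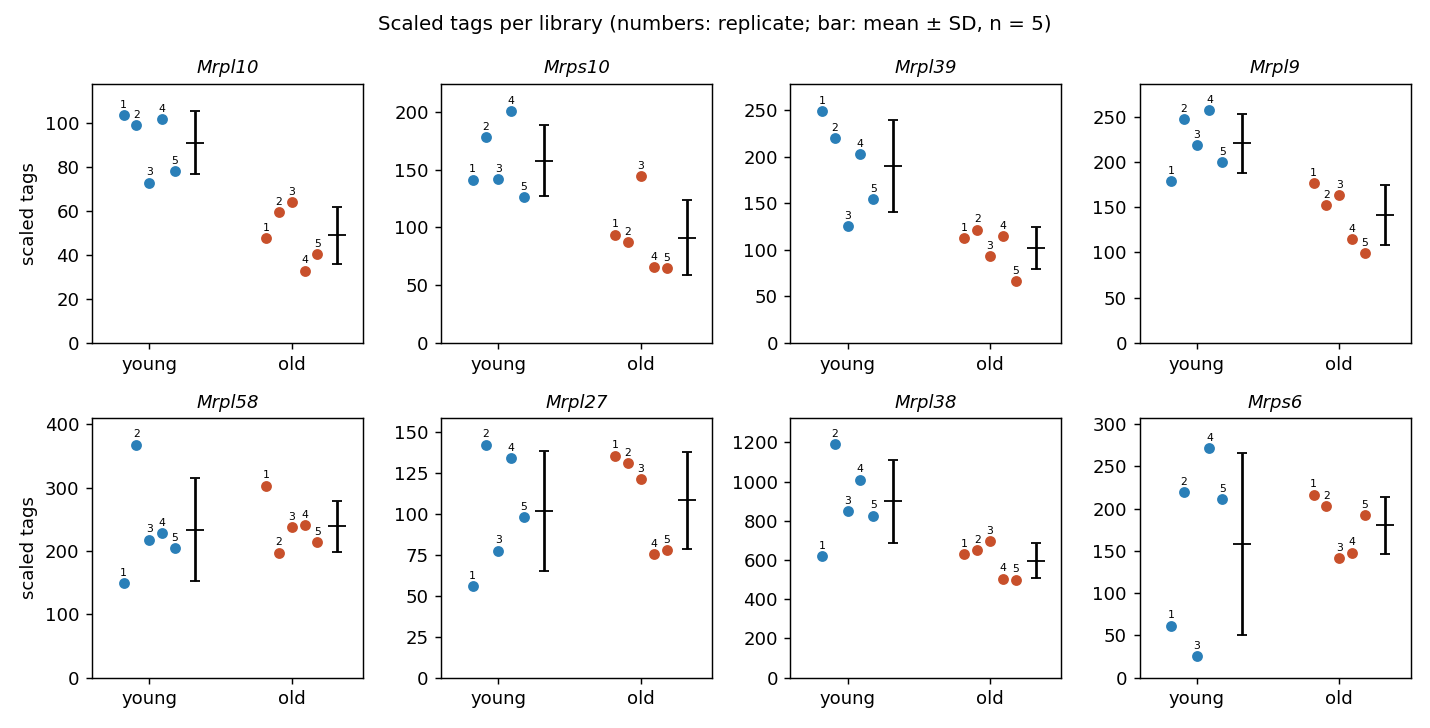
Scaled tags (y axis) in the 5 young (blue) and 5 old (red) libraries at 8 members; numbers are replicates, and the black bar is the mean ± SD. Old points of Mrpl10, Mrpl39 and Mrpl9 lie below all young points, those of Mrpl58 and Mrpl27 overlap, and young 1 and 3 of Mrps6 lie far below the rest. Before scaling to the median unit, 785 of 6630 units had no overlap between the ages.

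Mrpl38 had the smallest p in called length, and whether it passed depended on 2 libraries. The protein is part of the central protuberance of the large subunit. The regions at its ends covered 4684, 9860, 4588, 7917 and 9203 bp in young and 3651, 4884, 4014, 4332 and 3639 bp in old libraries. Young 2, 4 and 5 were far longer than the rest, and young 1 and 3 lay within the old range. The log2 difference in length was -0.61 (SE 0.18, limma adjusted p = 0.436). Without young 1 and 3 it was -0.88 relative to the median unit (SE 0.13, limma adjusted p = 0.0384). The unscaled mean lengths were then 8993 bp in young and 4104 bp in old. Mrpl38 was the only one of 65 members to pass, where 0.27% of 7776 units did. The 2 libraries were left out after the data were seen. They are the young ones that lay within the old range, so this p cannot serve as a test. Its scaled tags differed by -0.20 (adjusted p = 0.388), from 899 ± 214 to 597 ± 89.1 (SD, n = 5 each), and its tags per kb by 0.42 (adjusted p = 0.445).

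Mrps6, whose region also serves the inositol transporter gene Slc5a3, showed the reverse dependence. It gave 61.7, 219, 25.2, 272 and 211 scaled tags in young and 217, 203, 142, 148 and 192 in old libraries. The low values were those of young 1 and 3. The log2 difference of 0.99 (SE 0.52, limma adjusted p = 0.435), the highest of the members, became 0.11 without them, and that in length 0.20 in place of 0.70. Mrps5 likewise moved from 0.72 to -0.00, with 41.3 and 40.2 in young 1 and 3 and 159 to 203 in the other young libraries. Mrpl33 moved from 0.68 to 0.36.

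In length, Mrpl10, Mrpl38, Mrps6, Mrpl50 (-0.37, and -0.22 without young 1 and 3) and Mrpl19 (-0.47) had the 5 smallest p, and the 2 members whose ages did not overlap after scaling were Mrpl38 and Mrps6 (1.99% of units had no overlap). In tags per kb the 5 were Mrps10, Mrpl38, Mrpl37 (-0.32), Mrpl58 (0.31) and Mrpl43 (-0.31, and -0.14 without young 1 and 3), and Mrps10 and Mrpl37 had no overlap after scaling (1.75% of units). Mrpl10 was the 1 member with an unadjusted p under 0.05 in tags and the opposite sign in tags per kb.

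Without scaling each library to its median unit, 739 units (11.1%) passed in scaled tags, 5 higher and 734 lower in old. A total of 3 members were then lower: Mrpl39 (-0.89, limma adjusted p = 0.0419), Mrpl10 (-0.91, adjusted p = 0.0443) and Mrpl15 (-0.63, adjusted p = 0.0458). The median unit lay at -0.36 and the median member at -0.47, with 47 of 53 members below 0.

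The other genes of the mitochondrial translation system also gave 0 calls in either direction in all 3 measures. Some values below belong to regions that serve another gene too. These are Ptcd3 (with Polr1a), Gadd45gip1 (Dand5), Mettl15 (Kif18a), Mrrf (Rbm18) and Slirp (Alkbh1 and Nrp). Qrsl1 (Rtn4ip1), Tfb2m (Cnst) and Uqcrb (Gm10767) are further cases. Rps2 and Ndufb10 had the same young mean, 415 scaled tags. The 5 ribosomal proteins outside the name pattern were all called in every library and all 5 differences in scaled tags were negative, with a median of -0.15. The 3 smallest p were those of Ptcd3 at -0.46 (limma adjusted p = 0.441), Aurkaip1 at -0.12 and Gadd45gip1 at -0.15. Of 16 assembly and rRNA modification genes 11 were positive and 5 negative, with a median of 0.13. There Mettl15 (0.59, adjusted p = 0.252) and the rRNA dimethyltransferase Tfb1m (0.49, adjusted p = 0.255) were higher and C1qbp (-0.29, adjusted p = 0.364) lower in old by amounts that did not pass.

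Among 12 translation factors 5 were positive and 7 negative (median -0.03). The initiation factor Mtif2 averaged 462 ± 186 scaled tags in young and 148 ± 17.6 in old (SD, n = 5 each). Relative to the median unit its log2 difference was -1.14 (SE 0.31, limma adjusted p = 0.195). The ribosome recycling factor Mrrf was at 0.38 (adjusted p = 0.142) and the RNA-binding Slirp at -0.66 (adjusted p = 0.257). Of 16 aminoacyl-tRNA synthesis genes 12 were negative (median -0.09), with Yars2 at -0.38, Qrsl1 at -0.41 and Kars at -0.30. Mitochondrial transcription and DNA genes split 5 and 5 (median 0.00), with Tfb2m at -0.21, Tfam at 0.29 and Top1mt at -0.16.

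Of the regulators of nuclear genes for mitochondria 9 of 11 were called and tested, 3 positive and 6 negative (median -0.14). The coactivator gene Ppargc1b averaged 1060 ± 181 scaled tags in young and 656 ± 87.7 in old (SD, n = 5 each). Relative to the median unit its log2 difference was -0.31 (limma adjusted p = 0.221). Its relative Pprc1 was at -0.71 (adjusted p = 0.228) and the nuclear receptor Esrra at -0.17 (adjusted p = 0.483). Cytosolic ribosomal protein genes split 26 and 46 (median -0.09; smallest p at Rps24, -0.51, Rps2, -0.34, and Rpl12, -0.66) and oxidative phosphorylation genes 30 and 30 (median -0.01; Ndufb2, 0.33, Cox8a, 0.47, and Uqcrb, -0.31).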

How the data were processed

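H3K27ac ChIP-seq of 10 hepatocyte libraries was analysed; the 10 input samples enter only as a column of each list. Each list was made by the authors with HOMER findPeaks, histone style, against input (peak size 500 bp, at least 4.0-fold, local region 10000 bp), per the file headers. The submitters' processing notes name mm10. No aligner is named in the sources used here. The deposited scaled tags (signal) are tags per 10000000, and the deposited Total Tags are expected counts in steps of 0.5. HOMER's deposited score served only to rank regions. Whether the human spike-in entered the scaling is not stated there.

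Members, lists and rules were chosen with earlier results of these data known. Gene ends came from RefSeq GRCm38.p6 with strand for 69 of 78 members. Units called in all 10 libraries were tested with limma 3.58.1 (R 4.3.3), trend, Benjamini-Hochberg over 6630 units, after testing on simulated data. Values were log2(value + 1) for tags and tags per kb, and log2 of bp for length (250 bp where not called). Each library was centred on its median unit. Counts were rounded for edgeR 4.0.16 and DESeq2 1.42.0. Named members were those past a threshold, the 10 (tags) or 5 (length, density) smallest p, the 5 highest and 5 lowest, the 3 longest and 3 shortest, and those not called throughout; further examples of regions shared, missing or sensitive to young 1 and 3 were chosen after their values were seen. Tag depth per library limits precision at weak promoters. Alternatives are in the closing section.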

Additional observations from a re-analysis of the deposited data

Results flagged for a closer look

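Within each age, the library totals given above and the scaled tags of the members chosen by rule were searched for a single library far from the other 4, over 102 groups of 5, of which 7 stood out. Chance gives about 1 such group in 20, but many of these members were included because some library had no call, so the 7 cannot be read against that rate. In 6 of the 7 the library stood at 0 because no region was called: Mrps30, Mrpl47 and Mrps16 at 0 in young 1, Mrpl18 at 0 in young 3, and Mrpl40 and Mrpl20 at 0 in old 5. The other young libraries of Mrps16 held 88.5 to 104 scaled tags, and the other old libraries of Mrpl20 50.4 to 55.8. In Mrps18c the library that stood out was high, with 63.0 in old 2 and 0 in the other 4 old libraries.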

How the results depend on the processing

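Under 65 of 67 settings across the 3 measures 0 members passed; the exceptions were scaled tags without centring (3 members) and length without young 1 and 3 (1 member, Mrpl38), the latter chosen after seeing the data. In scaled tags the main fit called 5 of 6630 units. On the same units, calls numbered 739 without centring, 14 with cyclic loess, 1 with efficiency as a covariate and 9 with a pseudocount of 10. There edgeR called 9 and DESeq2 146 (61 higher, 85 lower). Other settings tested other sets of units. They called 15 of 4654 for regions that overlap a gene end, 12 of 4991 at starts only and 2 of 8107 within 5 kb. For the 15000 best-scored regions they called 3 of 974, and for units serving 1 gene 9 of 6033. Without young 1 and 3 the calls were 40 of 7776, and on consensus regions 49 of 6264. The cause of these differences was not tested. The same sets of units were tested in the other 2 measures. In length (1 in the main fit) calls numbered 5 uncentred and 21 without young 1 and 3. They numbered 0 for overlapping regions, the best-scored regions and the efficiency covariate. In tags per kb (0 in the main fit) they numbered 3 within 5 kb, 1 for the best-scored regions and 7 without young 1 and 3. With the replicate block, calls numbered 1 in tags, 0 in length and 1 in tags per kb; same-numbered libraries correlated at -0.10 to 0.22, and the labels name no pairing, so the numbers were not used as pairs. Without centring the median member difference was -0.47 in tags, -0.18 in length and -0.23 in tags per kb; for the best-scored regions it was -0.12 in length, the members' share differed by 0.025 percentage points, and Mrpl58 turned to -0.56 in tags. Leaving out 1 library gave 3 to 18 units in tags, 1 to 5 in length and 0 to 2 in tags per kb (18 in tags without young 1), 0 members, member medians of -0.10 to -0.05, -0.04 to 0.02 and -0.07 to 0.04, a matched median of -0.13 to -0.07 and a share difference of -0.016 to 0.003 points. For 20 pairs of gene and measure, with some genes in more than 1 measure, 435 of 439 values kept direction and side of the threshold. None of these pairs passed in the main fits, so the same side means that the value still did not pass. Weak promoters near 100 tags limit what the depth can show.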
